A study of Homo sapiens with 8 samples.

Results

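Cell surface and secreted guidance molecules were followed across 4 time points of neural differentiation: the Eph receptors and their ephrin ligands, the semaphorins with their plexin and neuropilin receptors, the slits with their ROBO receptors, and the netrins with DCC and the UNC5 receptors. Members were taken by gene symbol from these families, which gave 69 genes of the 35940 gene symbols in the table. The cells were ESI017, an established human embryonic stem cell line with a wild type genotype, and every library comes from this 1 line. All libraries were grown in N2B27, a serum-free neural medium, with 10 µM SB and 100 nM LDN, and 300 ng/mL of recombinant WNT3A protein was added 34 h after differentiation began. The 34 h group (2 libraries) was collected at the hour of WNT3A addition, and the 42, 50 and 72 h groups (2 libraries each) had WNT3A for 8, 16 and 38 h. Each replicate number is also a batch number in the labels, and the study describes 1 replicate set as an independent biological repeat. A WNT3A-free arm is not among the groups analysed here, so the effect of WNT3A and the passage of time cannot be told apart in any comparison with 34 h.

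Eph receptors are receptor tyrosine kinases that bind ephrins on neighbouring cells, and both partners signal. In the embryonic hindbrain their segment-wise expression keeps the cells of adjacent rhombomeres apart, and EPHA4 is a known marker of odd-numbered rhombomeres, where the transcription factor EGR2 activates it. Class 3 semaphorins are secreted and act through neuropilin and plexin complexes, most other vertebrate semaphorins are bound to the membrane and act on plexins directly, slits repel through ROBO receptors, and netrin-1 attracts through DCC and repels through UNC5 receptors. Many of these genes are also active before axons grow, in epithelia, vessels and progenitor cells.

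Levels are in TPM, a measure scaled by transcript length and library total, so they can be compared between genes, and the read depth of the libraries is unknown. Each value pair below is replicate 1 followed by replicate 2, and fold changes are differences of log2(TPM + 1) with their standard errors from limma fitted to all 14908 tested genes. Gene positions are on GRCh38 with GENCODE release 29, and a value in parentheses after a left-out library or an alternative fit is the adjusted p found then. A gene is called changed, and is said to rise or fall, at a Benjamini-Hochberg adjusted p under 0.05 over all tested genes. Because RNA came from whole cultures, fewer expressing cells and less RNA per cell cannot be told apart. The WNT feedback gene AXIN2 had 20.6 and 15.7 TPM (34 h), 101 and 85.9 TPM (42 h), 98.5 and 90.0 TPM (50 h) and 63.9 and 70.9 TPM (72 h). Of the 5 pluripotency markers, POU5F1, DPPA4 and NANOG had lower means at 72 h than before WNT3A (371 against 1159 TPM, 165 against 383 TPM and 0.682 against 2.03 TPM). The other 2, which neural progenitors also express, had higher ones (SOX2 340.4 against 217 TPM, LIN28A 1024 against 902 TPM). Of the 4 neural progenitor markers, SOX1 (50.8 against 1.89 TPM), PAX6 (3.80 against 0.154 TPM) and NES (229 against 135 TPM) had higher means at 72 h, and SOX3 had 19.9 against 21.2 TPM. Among markers of other cell types that use guidance genes, the vascular markers PECAM1, CDH5 and ESAM and the neuronal markers NEUROD1, ISL1 and ELAVL4 were below 1 TPM in every library. The summed level of the 7 endothelial markers ran from 34.9 to 36.9 TPM before WNT3A and from 40.0 to 44.4 TPM at 72 h, but its members differed in direction, with 72 h means of 32.5 TPM for TEK against 16.6 TPM before WNT3A, 4.88 against 10.0 TPM for KDR and 1.11 against 5.26 TPM for CLDN5. The 7 neuronal markers summed to 213 to 266 TPM before WNT3A and 183 to 215 TPM at 72 h, most of it TUBB3 (185 TPM at 72 h against 235 TPM). STMN2 and DCX of that list had higher means at 72 h, 7.56 against 0.288 TPM and 5.47 against 2.74 TPM. The 6 neural crest markers summed to 10.9 to 12.7 TPM before WNT3A and 10.1 to 11.9 TPM at 72 h, with SNAI2 at a mean of 6.09 TPM at 72 h against 0.350 TPM and FOXD3 listed at 0 at 72 h against 4.56 TPM. The 6 mesoderm markers summed to 0.617 to 1.18 TPM before WNT3A, then 2.80 to 2.82 TPM (42 h), 2.58 to 2.88 TPM (50 h), and finally 1.89 to 2.35 TPM (72 h). MIXL1 of that list had means of 0.112, 1.49, 1.64 and 0.312 TPM in that order, so it was higher at 42 and 50 h. SEMA3C, NTN1 and EPHB3 were also higher at 42 and 50 h than before WNT3A. At 72 h, where MIXL1 was low again, their means were 9.69 against 0.2155 TPM, 7.42 against 3.35 TPM and 18.8 against 2.78 TPM before WNT3A. The part of these other cell types in the results below was not tested.

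The stretches before a listed start of 5 members with called rises are shown as examples, 4 of the Eph and ephrin families and 1 class 3 semaphorin. They are RefSeq promoter sequences on GRCh38.p14, printed 5′ to 3′ on the gene's strand, from up to 250 bases before the most downstream listed start, leaving out bases that GENCODE release 29 places in an exon of the gene. EPHA4 (chr2:221572359-221572554, minus strand) had 81.1% G and C and EFNB2 (chr13:106535663-106535912, minus strand) had 78.4%. EPHB3 (chr3:184561535-184561783, plus strand) had 69.9% and EFNB1 (chrX:68828771-68828996, plus strand) had 62.8%, against a median of 62.0% over all windows of the table. SEMA3E (chr7:83641432-83641681, minus strand) was the AT-rich exception of these 5, with 34.8% G and C. Capitals mark matches, on either strand, to CTTTGA or CTTTGT, letters that TCF and LEF factors can bind, and to GCGNGGGCG, letters that EGR factors can bind.
EPHA4: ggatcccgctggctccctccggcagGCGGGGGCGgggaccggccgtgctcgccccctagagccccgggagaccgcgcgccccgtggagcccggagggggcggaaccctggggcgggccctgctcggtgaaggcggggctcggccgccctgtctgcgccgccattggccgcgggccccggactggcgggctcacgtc
EPHB3: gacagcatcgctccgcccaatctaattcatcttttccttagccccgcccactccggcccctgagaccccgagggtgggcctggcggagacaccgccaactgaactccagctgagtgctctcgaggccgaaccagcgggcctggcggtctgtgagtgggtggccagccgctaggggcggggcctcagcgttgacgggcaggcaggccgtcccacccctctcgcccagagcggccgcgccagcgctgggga
EFNB1: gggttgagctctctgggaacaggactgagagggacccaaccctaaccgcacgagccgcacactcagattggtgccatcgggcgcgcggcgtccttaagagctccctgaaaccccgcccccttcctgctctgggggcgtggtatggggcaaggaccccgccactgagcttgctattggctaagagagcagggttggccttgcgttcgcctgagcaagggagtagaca
EFNB2: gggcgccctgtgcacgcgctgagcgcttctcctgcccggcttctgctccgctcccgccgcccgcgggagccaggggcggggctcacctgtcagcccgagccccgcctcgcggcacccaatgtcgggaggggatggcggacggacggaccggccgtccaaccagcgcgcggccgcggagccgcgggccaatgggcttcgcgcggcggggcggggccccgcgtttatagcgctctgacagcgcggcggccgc
SEMA3E: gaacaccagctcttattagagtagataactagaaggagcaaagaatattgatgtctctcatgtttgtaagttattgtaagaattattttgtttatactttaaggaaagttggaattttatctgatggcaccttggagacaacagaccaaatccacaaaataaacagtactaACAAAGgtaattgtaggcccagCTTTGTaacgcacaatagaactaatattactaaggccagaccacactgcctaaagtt

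The EPHA4 stretch held 1 match to GCGNGGGCG, which began 225 bases before the start, and the SEMA3E stretch held 2 matches to CTTTGT, which began 79 and 57 bases before it. The EPHB3, EFNB1 and EFNB2 stretches held none of these letters, and each lies next to the annotated 5′ end of its gene. The EPHA4 and SEMA3E stretches lie within the annotated span of the gene, between its exons, because the most downstream start is an internal one. Promoter windows of 300 bases (250 before to 50 after a start) were listed for 59 of the 69 members, 91 windows in all. GCGNGGGCG was in 20.9% of the members' windows and in 12.3% of all 21077 windows, CTTTGA in 9.89% and 10.9%, and CTTTGT in 11% and 13.5%. The 19 member windows with GCGNGGGCG came from 17 members. Among them were EPHA4, raised at 72 h, EPHA1 and SEMA3F, lowered, and PLXND1 and SEMA4G, not called. Windows of 1 gene can overlap, and the G and C content of the members' windows was not compared with that of all windows. A match is a description of letters, and no binding was measured.

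Most guidance genes were already transcribed before WNT3A was added. Detection, taken as 1 TPM in each library of a time point, was met by 50 of the 69 genes before WNT3A (34 h), then by 55 (42 h), 56 (50 h) and 54 (72 h). The most abundant over all libraries were NRP2, PLXNB1, SEMA6A, SEMA4C and EPHB4. The filter for testing, 2 or more libraries with 1 TPM or above, left 60 members, and 51 of those reached 1 TPM in at least 1 library of every time point, a looser rule than that of detection. The other 9 of the 69 stayed too low to test: DCC, EPHA3, EPHA5, EPHA10, NTN3, PLXNB3, ROBO4, SEMA3D and UNC5C.

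At 42 h 8 of the 60 tested members differed from 34 h by limma, 6 raised and 2 lowered, where 2.58% of all tested genes were called (1.78% raised and 0.792% lowered). At 50 h against 34 h 20 were called, 13 raised and 7 lowered, with 6.26% of all genes called (3.52% raised, 2.74% lowered). At 72 h 37 of the 60 were called, 28 raised and 9 lowered, with 24.0% of all genes called (12.7% raised, 11.3% lowered). The median log2 change of the tested members was 0.11, 0.26 and 0.47 at 42, 50 and 72 h, and that of all tested genes was 0.01, 0.04 and 0.06. The count at 42 h was 3 without replicate 1 at 34 h, 2 without replicate 2 at 34 h, 3 without either 42 h library and 5 without either 72 h library. The 50 h count was 9 without replicate 1 and 10 without replicate 2 at 34 h, and 9 without replicate 1 at 50 h. Of the 37 calls at 72 h, 26 were kept in every one of the alternative settings and library omissions run, against 2 of the 8 at 42 h and 4 of the 20 at 50 h.

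Between 42 and 50 h 0 of the 60 were called by limma, with 0.0939% of all genes called (0.0604% raised, 0.0335% lowered). An unadjusted p under 0.05 was found for 10 of the 60 members and for 1394 of all 14908 tested genes. SEMA3C and SEMA3E were the members called in this interval when the variance was taken without its trend with level. Between 50 and 72 h 14 members were called, 10 raised and 4 lowered, with 7.33% of all genes called (2.92% raised, 4.41% lowered). That count was 8 without replicate 1 and 6 without replicate 2 at 50 h, and 4 without replicate 1 and 6 without replicate 2 at 72 h, and 4 of the 14 calls were kept in every alternative run. A test over all 4 time points called 32 of the 60, with 17.4% of all genes called, and 20 without replicate 1 at 72 h. At least 1 of the 5 contrasts called 38 members, with 25.6% of all genes called. Of these 38, 25 had their highest mean at 72 h, 8 before WNT3A, 3 at 50 h and 2 at 42 h, where the called genes of the whole table had it in 45.8%, 36.4%, 8.44% and 9.43% of cases.

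**Figure D1:**
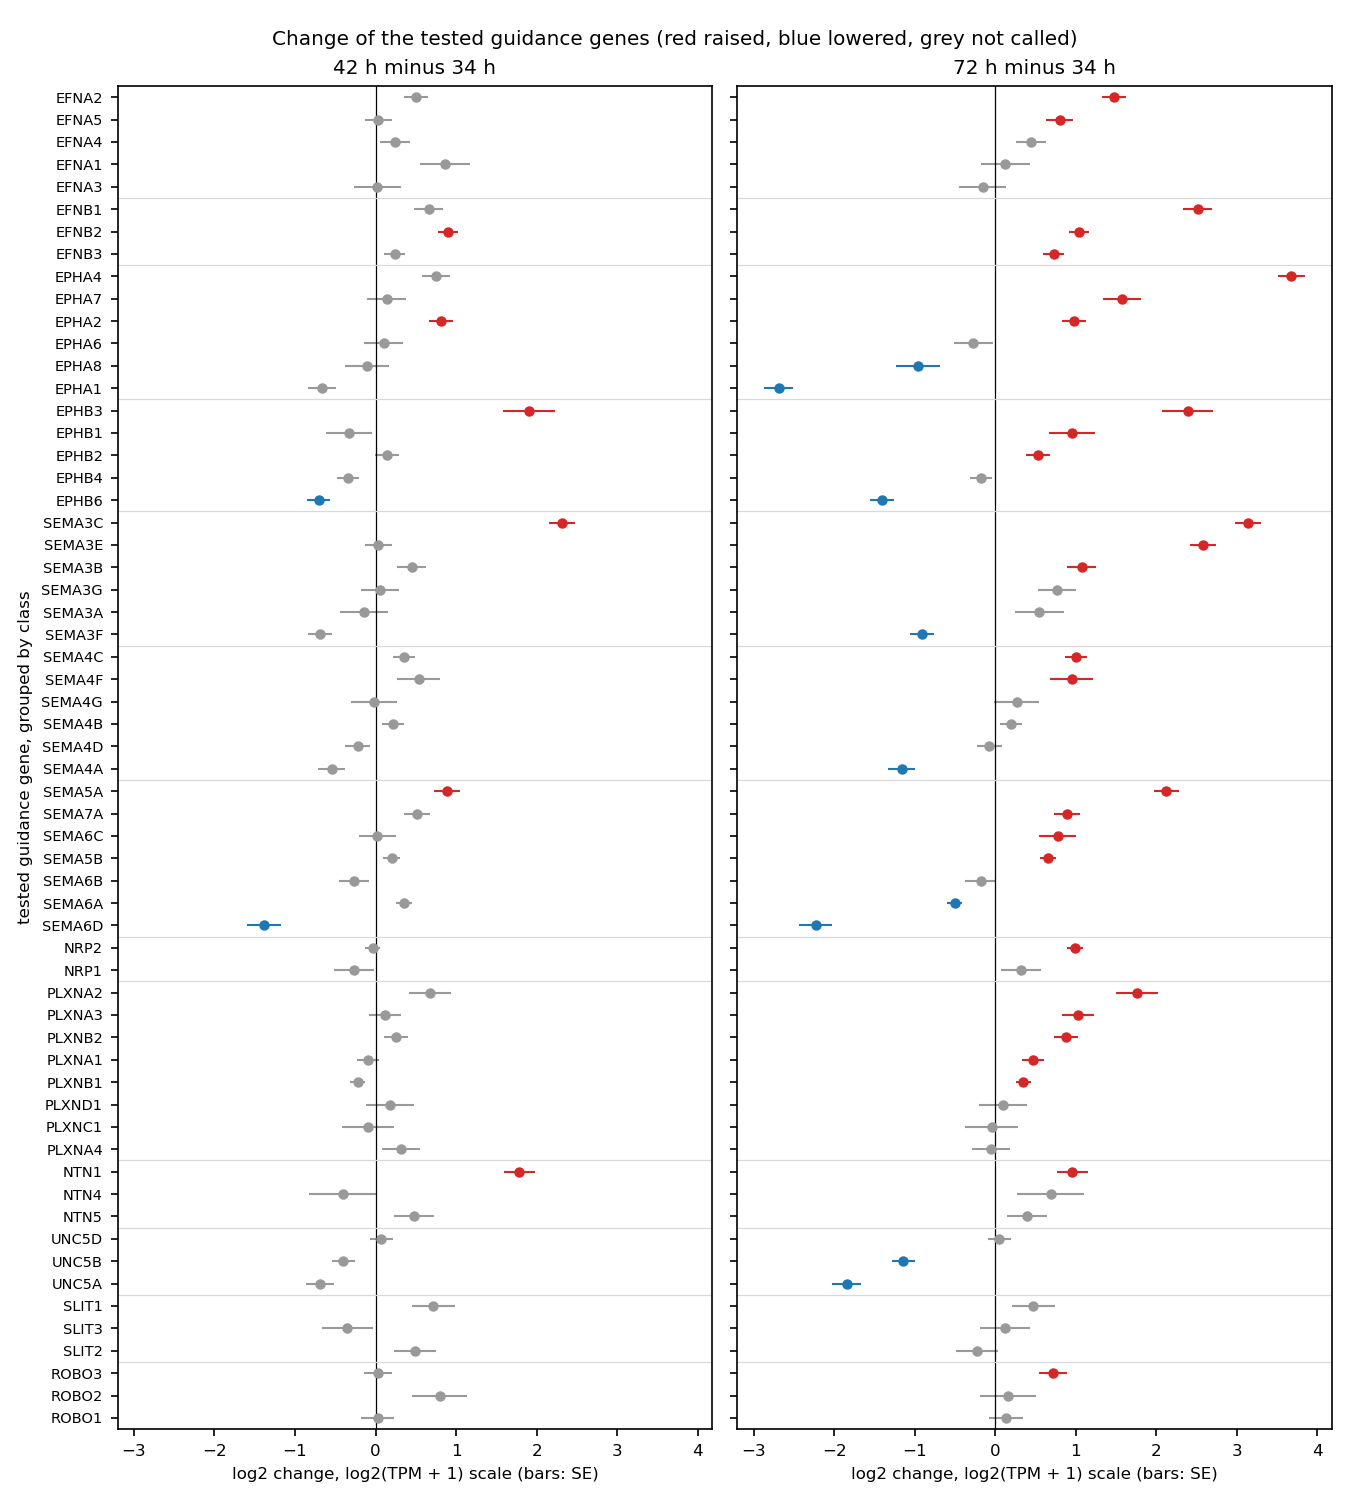
Log2 change (x axis, log2(TPM + 1) scale, bars are standard errors from limma) of each of the 60 tested guidance genes (y axis, grouped by class) at 42 h and at 72 h against 34 h. Red and blue points are the called rises and falls, 6 and 2 at 42 h and 28 and 9 at 72 h, and grey points were not called.

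Among the ephrin-A ligands, which are tethered to the membrane by a lipid anchor, 2 of 5 rose by 72 h, where 12.7% of all genes did, and none was called at 42 h, where 2.58% of all genes were. EFNA2 had 4.52 and 4.65 TPM (34 h), 7.17 and 6.67 TPM (42 h), 9.20 and 7.90 TPM (50 h) and 13.5 and 15.5 TPM (72 h). Its 72 h libraries both lay above all others, and the rise over 34 h was 1.47 ± 0.15 (limma BH-adjusted p 0.000406). EFNA5, the most abundant ephrin-A ligand, had 41.1 and 31.7 TPM (34 h), 34.2 and 39.9 TPM (42 h), 46.6 and 59.3 TPM (50 h) and 67.1 and 60.1 TPM (72 h). Its 72 h difference from 34 h was 0.80 ± 0.17 (limma BH-adjusted p 0.0110), a call that was lost without replicate 2 at 34 h (0.0733) or replicate 1 at 72 h (0.0741). EFNA1, EFNA3 and EFNA4 were not called in any comparison with 34 h, with log2 changes of 0.12, -0.16 and 0.44 at 72 h. The summed level of the 5 ephrin-A genes was 75.2 and 62.6 TPM (34 h), 81.3 and 76.4 TPM (42 h), 93.7 and 96.2 TPM (50 h) and 114 and 109.8 TPM (72 h).

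All 3 ephrin-B ligands, which cross the membrane and can signal back into their own cell, rose by 72 h (12.7% of all genes did). EFNB1 (chromosome X, 68828997 to 68842147, plus strand) had 13.1 and 12.4 TPM (34 h), 22.3 and 19.4 TPM (42 h), 40.8 and 27.6 TPM (50 h) and 74.9 and 80.1 TPM (72 h). It was higher at each later time and no library of 1 time point overlapped those of another, with log2 changes over 34 h of 1.33 ± 0.18 at 50 h and 2.51 ± 0.18 at 72 h (limma BH-adjusted p 0.00389 and 4.83e-05). The 72 h change was 2.42 and 2.60 within replicates 1 and 2. EFNB2 (chromosome 13, 106489731 to 106535662, minus strand), the partner of EPHB4 in vessels, took a different course, with 16.9 and 17.4 TPM (34 h), 31.5 and 34.4 TPM (42 h), 49.1 and 47.1 TPM (50 h) and 39.7 and 33.3 TPM (72 h). Its highest libraries were those of 50 h, and the change over 34 h was 1.43 ± 0.12 at 50 h and 1.04 ± 0.12 at 72 h (limma BH-adjusted p 0.000402 and 0.000695). At 42 h EFNB2 was called at 0.90 ± 0.12 (limma BH-adjusted p 0.00691), but not without replicate 1 or 2 at 34 h (0.0569 and 0.0523) or replicate 2 at 42 h (0.0677). EFNB3 had 9.98 and 9.20 TPM (34 h), 11.6 and 11.3 TPM (42 h), 10.7 and 10.6 TPM (50 h) and 16.6 and 16.3 TPM (72 h), and rose by 0.72 ± 0.13 at 72 h (limma BH-adjusted p 0.00498). Summed over the 3 genes, ephrin-B transcripts had 40.1 and 39.1 TPM (34 h), 65.4 and 65.1 TPM (42 h), 101 and 85.3 TPM (50 h) and 131 and 129.8 TPM (72 h), 3.30 times the 34 h mean at 72 h. EFNB2 held the largest share of that sum at 34 h (43.5%) and EFNB1 at 72 h (59.4%).

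The EphA receptors changed their leading member over the course, and their sum was level until 50 h and higher at 72 h. Summed over 9 genes, EphA transcripts had 79.0 and 81.2 TPM (34 h), 83.7 and 80.0 TPM (42 h), 81.2 and 77.6 TPM (50 h) and 159.7 and 159 TPM (72 h). EPHA1 held 59.4% of the sum at 34 h, EPHA2 held 38.8% at 42 h and 42.2% at 50 h, and EPHA4 held 65.7% at 72 h. EPHA4 (chromosome 2, 221418027 to 221574202, minus strand), which binds ephrins of both classes, had 8.89 and 5.93 TPM (34 h), 12.5 and 13.4 TPM (42 h), 14.2 and 14.4 TPM (50 h) and 107 and 103 TPM (72 h). The 34, 42 and 50 h libraries were all under 15 TPM and both 72 h libraries were above 100 TPM. Its mean at 72 h was 14.1 times that at 34 h, on the log2 scale 3.67 ± 0.17 (limma BH-adjusted p 7.12e-06, with 3.44 and 3.90 within the replicates), the highest rise of any member at 72 h on the log2(TPM + 1) scale. As a ratio of mean TPM, SEMA3C, which was near 0 at 34 h, was higher, at 45.0. Most of the EPHA4 rise came after 50 h, with 2.79 ± 0.17 from 50 to 72 h (limma BH-adjusted p 0.000120), and both calls were kept in every alternative run. The earlier difference was small: 0.75 ± 0.17 at 42 h was not called (limma BH-adjusted p 0.0696), although it was without replicate 1 at 34 h (0.0265). At 50 h it was 0.88 ± 0.17 (limma BH-adjusted p 0.0203), a call lost without replicate 2 at 34 h (0.0815) and without replicate 1 or 2 at 50 h (0.0837 and 0.0801).

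Beside EPHA4, the hindbrain segment factor EGR2 had 0.570 and 1.49 TPM (34 h), 0.806 and 1.02 TPM (42 h), 0.599 and 0.284 TPM (50 h) and 46.9 and 38.7 TPM (72 h). EGR2 and EPHA4 thus both had their highest libraries at 72 h, with EGR2 under 2 TPM in all earlier ones.

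**Figure D2:**
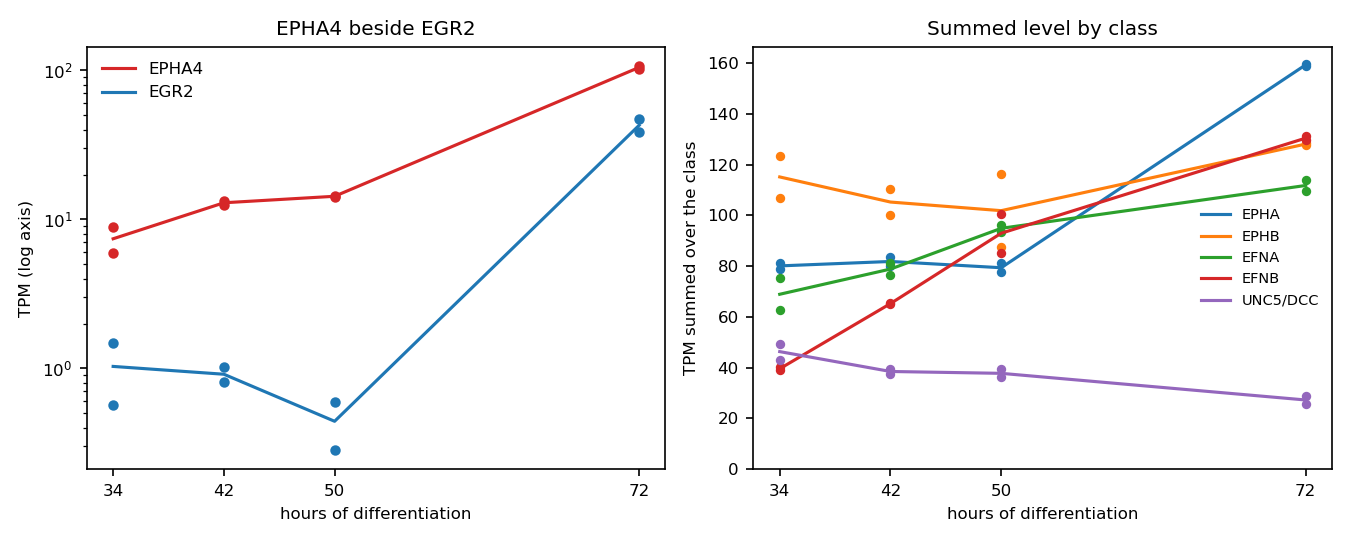
Left, TPM (log axis) of EPHA4 and EGR2 against hours of differentiation; right, TPM summed over the EphA, EphB, ephrin-A, ephrin-B and UNC5 with DCC genes. Points are libraries and lines time point means: EPHA4 and EGR2 are highest at 72 h, and the ephrin-B sum goes from 39.6 to 130.5 TPM.

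EPHA1, a receptor of epithelia (chromosome 7, 143390289 to 143408892, minus strand), moved the opposite way, with 45.6 and 49.5 TPM (34 h), 29.7 and 29.6 TPM (42 h), 21.4 and 28.3 TPM (50 h) and 5.58 and 7.56 TPM (72 h). Its 72 h libraries lay below all others, and the change over 34 h was -2.69 ± 0.17 (limma BH-adjusted p 2.93e-05, with -2.83 and -2.56 within the replicates). From 50 to 72 h alone EPHA1 fell by 1.77 on the log2 scale (limma BH-adjusted p 0.00100). EPHA2, a receptor of epithelia and pluripotent cells, had 16.8 and 18.6 TPM (34 h), 33.3 and 30.2 TPM (42 h), 38.0 and 29.01 TPM (50 h) and 35.6 and 35.8 TPM (72 h). It was higher in every later library than at 34 h, and the rise at 72 h was 0.98 ± 0.15 (limma BH-adjusted p 0.00240). EPHA7, a receptor found in restricted domains of the neural tube, had 1.22 and 1.904 TPM (34 h), 1.62 and 1.97 TPM (42 h), 1.39 and 1.68 TPM (50 h) and 7.64 and 5.59 TPM (72 h). The 6 libraries up to 50 h were all under 2 TPM, and the change over 34 h at 72 h was 1.57 ± 0.24 (limma BH-adjusted p 0.00261). EPHA8 had 4.74 and 4.01 TPM (34 h), 4.95 and 3.20 TPM (42 h), 4.24 and 2.39 TPM (50 h) and 1.57 and 1.95 TPM (72 h), and its fall of -0.96 at 72 h (limma BH-adjusted p 0.0374) did not survive leaving out any 1 of the 34 or 72 h libraries (0.0961 to 0.158). EPHA6 was not called in any contrast, and EPHA3, untested, was below 0.2 TPM until 50 h and had 1.56 and 0.861 TPM at 72 h.

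The EphB receptors, which bind mainly ephrin-B ligands, had a sum of 123.5 and 107 TPM (34 h), 110.3 and 100.3 TPM (42 h), 116 and 87.6 TPM (50 h) and 128 and 128 TPM (72 h), with members that moved in opposite directions. EPHB4, a receptor known from veins, held the largest share of this sum at every time point and had 81.1 and 67.6 TPM (34 h), 60.1 and 56.5 TPM (42 h), 58.7 and 46.7 TPM (50 h) and 66.4 and 64.0 TPM (72 h). It was not called in any contrast, with -0.18 ± 0.14 at 72 h (limma BH-adjusted p 0.374), although its 50 h difference of -0.49 from 34 h (0.0781) was called with the replicate number as a block (0.0399). EPHB3 (chromosome 3, 184561784 to 184582409, plus strand), a WNT target in the intestinal crypt, had 2.88 and 2.68 TPM (34 h), 16.6 and 10.4 TPM (42 h), 15.5 and 7.27 TPM (50 h) and 18.6 and 18.9 TPM (72 h). All later libraries were above those of 34 h, and replicate 2 was lower than replicate 1 at 42 and 50 h. The difference from 34 h was 2.39 ± 0.32 at 72 h (limma BH-adjusted p 0.00139). At 42 h it was 1.904 ± 0.32 (limma BH-adjusted p 0.0194, with 2.18 and 1.63 within the replicates), lost without replicate 1 or 2 at 34 h (0.105 and 0.133) or replicate 1 at 42 h (0.122). EPHB6, a family member without kinase activity, had 13.4 and 13.1 TPM (34 h), 7.85 and 7.60 TPM (42 h), 7.14 and 6.55 TPM (50 h) and 4.57 and 4.18 TPM (72 h) as the sum of its 2 Ensembl rows. Its libraries did not overlap between any 2 time points, and the fall at 72 h was -1.41 ± 0.14 (limma BH-adjusted p 0.000365). The smaller difference of EPHB6 at 42 h (-0.71, limma BH-adjusted p 0.0468) was lost with the replicate number as a block (0.0612) and without any 1 of the 8 libraries. With Ensembl rows fitted apart, the more abundant EPHB6 row was not called at 42 h (0.437). The 50 h call of EPHB6 (-0.86, limma BH-adjusted p 0.0112) was lost then too (0.0759), and its 72 h call was kept. EPHB1 had 6.54 and 4.63 TPM (34 h), 2.92 and 5.87 TPM (42 h), 5.12 and 3.93 TPM (50 h) and 11.3 and 11.9 TPM (72 h), and its calls at 72 h against 34 h (limma BH-adjusted p 0.0426) and against 50 h (0.0407) were both lost with the replicate block (0.0540 and 0.0543) and without any 1 of the libraries compared; the second was lost without either 34 h library too. EPHB2 rose by 0.53 at 72 h (limma BH-adjusted p 0.0351), also lost without any 1 of the 34 or 72 h libraries.

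**Figure D3:**
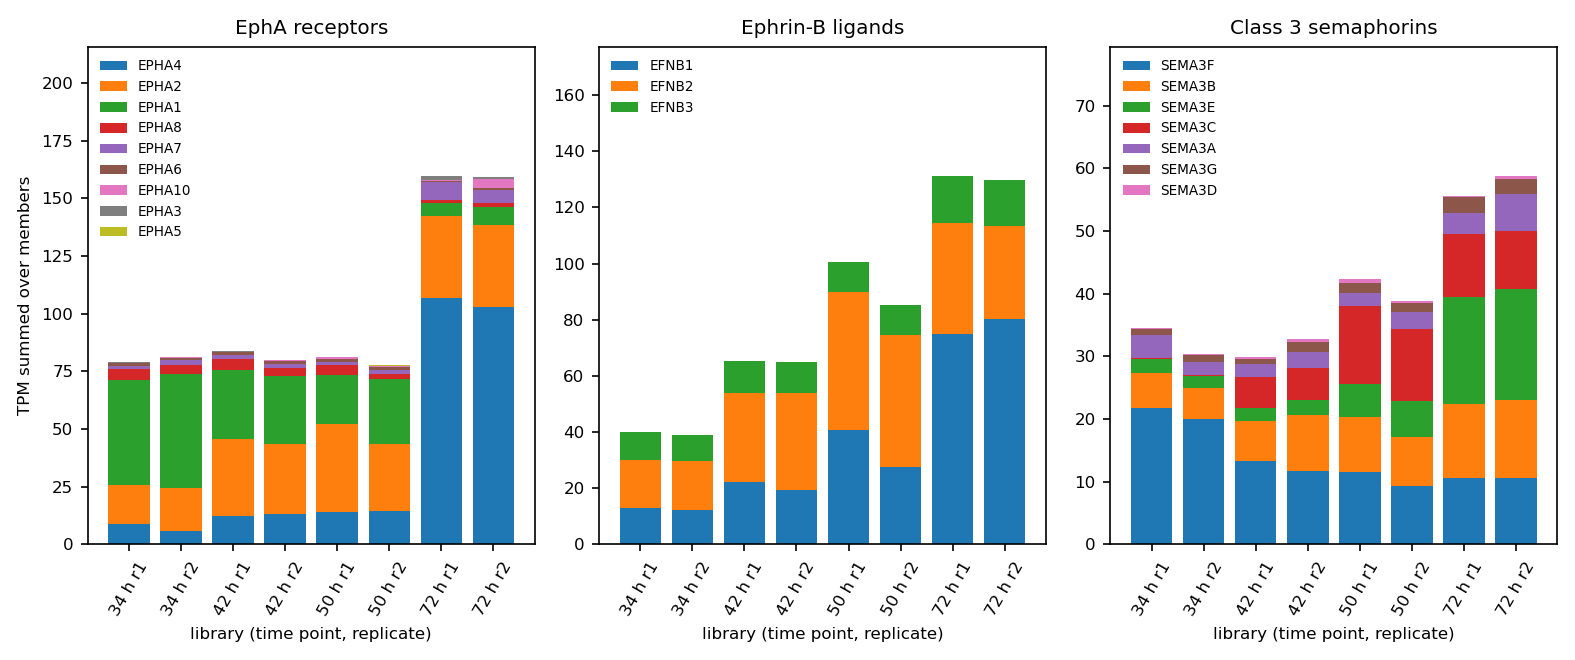
TPM of each member, stacked, in each library (x axis, time point and replicate) for the EphA receptors, the ephrin-B ligands and the class 3 semaphorins. EPHA4 fills most of the EphA bar at 72 h only, EFNB1 takes the largest part of the ephrin-B bar at 72 h, and SEMA3C and SEMA3E join SEMA3F from 42 and 50 h.

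Of the class 3 semaphorins, 6 of 7 could be tested, and at 72 h 3 had risen and 1 had fallen, beside 12.7% and 11.3% of all genes. SEMA3C (chromosome 7, 80742538 to 80922359, minus strand), which acts on migrating neural crest and the heart's outflow tract, showed the widest early change of any member. It had 0.228 and 0.203 TPM (34 h), 4.94 and 5.18 TPM (42 h), 12.4 and 11.4 TPM (50 h) and 10.1 and 9.23 TPM (72 h). Both 34 h libraries were below 0.3 TPM and all later ones were above 4 TPM; SEMA3C passed the low-value filter through its later libraries. The log2 change over 34 h was 2.32 ± 0.16 (42 h), 3.41 ± 0.16 (50 h) and 3.14 ± 0.16 (72 h) (limma BH-adjusted p 0.000334, 3.79e-05 and 1.13e-05), and these 3 calls were kept in every alternative run. SEMA3E (chromosome 7, 83363238 to 83649113, minus strand), a ligand of PLXND1, came later, with 2.15 and 2.00 TPM (34 h), 1.99 and 2.32 TPM (42 h), 5.35 and 5.70 TPM (50 h) and 17.0 and 17.7 TPM (72 h). Its 42 h libraries overlapped those of 34 h and its 50 and 72 h libraries were each above all earlier ones. The change was 2.58 ± 0.16 from 34 to 72 h and 1.49 ± 0.16 from 50 to 72 h (limma BH-adjusted p 2.70e-05 and 0.00162). SEMA3B, a repellent ligand, had 5.64 and 4.94 TPM (34 h), 6.42 and 8.93 TPM (42 h), 8.65 and 7.90 TPM (50 h) and 11.9 and 12.5 TPM (72 h), and rose by 1.07 ± 0.18 at 72 h (limma BH-adjusted p 0.00400). SEMA3F, the NRP2 ligand that held 64.2% of the class 3 sum at 34 h, had 21.8 and 19.9 TPM (34 h), 13.3 and 11.7 TPM (42 h), 11.6 and 9.27 TPM (50 h) and 10.6 and 10.6 TPM (72 h). All its later libraries lay under those of 34 h, with -0.91 ± 0.15 at 72 h (limma BH-adjusted p 0.00370). SEMA3A and SEMA3G were not called in any contrast. The class 3 sum was 34.6 and 30.4 TPM (34 h), 29.9 and 32.7 TPM (42 h), 42.3 and 38.8 TPM (50 h) and 55.6 and 58.8 TPM (72 h).

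Their co-receptors were led by NRP2, the most abundant member of all. NRP2 had 136 and 127 TPM (34 h), 121 and 136 TPM (42 h), 179 and 190.3 TPM (50 h) and 274 and 251 TPM (72 h). The 72 h libraries were the highest, a change over 34 h of 0.99 ± 0.10 (limma BH-adjusted p 0.000252). NRP1, the other neuropilin, stayed between 1.91 and 3.90 TPM and was not called in any contrast.

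Membrane-bound semaphorins were among the most abundant members and changed in both directions. SEMA5A, a semaphorin with thrombospondin repeats, had 2.34 and 2.86 TPM (34 h), 5.62 and 5.65 TPM (42 h), 7.03 and 6.41 TPM (50 h) and 15.0 and 14.3 TPM (72 h). Its 72 h change over 34 h was 2.12 ± 0.16 (limma BH-adjusted p 6.37e-05, with 2.27 and 1.98 within the replicates). SEMA6D (chromosome 15, 47184101 to 47774223, plus strand), a ligand of PLXNA1, showed the reverse pattern, with 14.6 and 11.7 TPM (34 h), 4.24 and 4.55 TPM (42 h), 1.98 and 3.03 TPM (50 h) and 2.03 and 1.97 TPM (72 h). Later libraries were all below those of 34 h, and the change was -2.02 ± 0.21 at 50 h and -2.23 ± 0.21 at 72 h (limma BH-adjusted p 0.00106 and 0.000216). The SEMA6D difference at 42 h (-1.39, limma BH-adjusted p 0.0118) did not survive leaving out any 1 of the 34 or 42 h libraries (0.0536 to 0.108). SEMA4C, a ligand of PLXNB2, had 57.3 and 45.3 TPM (34 h), 64.2 and 66.7 TPM (42 h), 91.9 and 75.0 TPM (50 h) and 105 and 102 TPM (72 h). It rose by 1.00 ± 0.14 at 72 h (limma BH-adjusted p 0.00165), with both 72 h libraries above all others. SEMA4A had 11.99 and 9.86 TPM (34 h), 7.20 and 7.09 TPM (42 h), 5.09 and 5.56 TPM (50 h) and 4.02 and 4.59 TPM (72 h), and fell by 1.17 on the log2 scale at 72 h (limma BH-adjusted p 0.00184). SEMA6A, a ligand of PLXNA2 and PLXNA4 and the most abundant semaphorin, had 114 and 101 TPM (34 h), 135 and 141 TPM (42 h), 124 and 129.7 TPM (50 h) and 76.8 and 74.2 TPM (72 h). It was higher at 42 and 50 h than at 34 h in every library, without a call, and fell from 50 to 72 h by 0.74 on the log2 scale (limma BH-adjusted p 0.00315). At 72 h SEMA6A was also lower than at 34 h, by -0.50 ± 0.09 (limma BH-adjusted p 0.00648), and both calls were kept in every alternative run. SEMA5B and SEMA7A rose at 72 h, by 0.65 and 0.89 (limma BH-adjusted p 0.00325 and 0.00595). SEMA4F and SEMA6C were also called at 72 h (limma BH-adjusted p 0.0361 and 0.0429), calls that were lost without either 34 h library (0.0857 and 0.157 for SEMA4F, 0.180 and 0.0881 for SEMA6C). SEMA4F was also not called without either 72 h library, and SEMA6C without any other library except replicate 1 at 72 h. SEMA4B, SEMA4D, SEMA4G and SEMA6B were not called in any contrast.

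**Figure D4:**
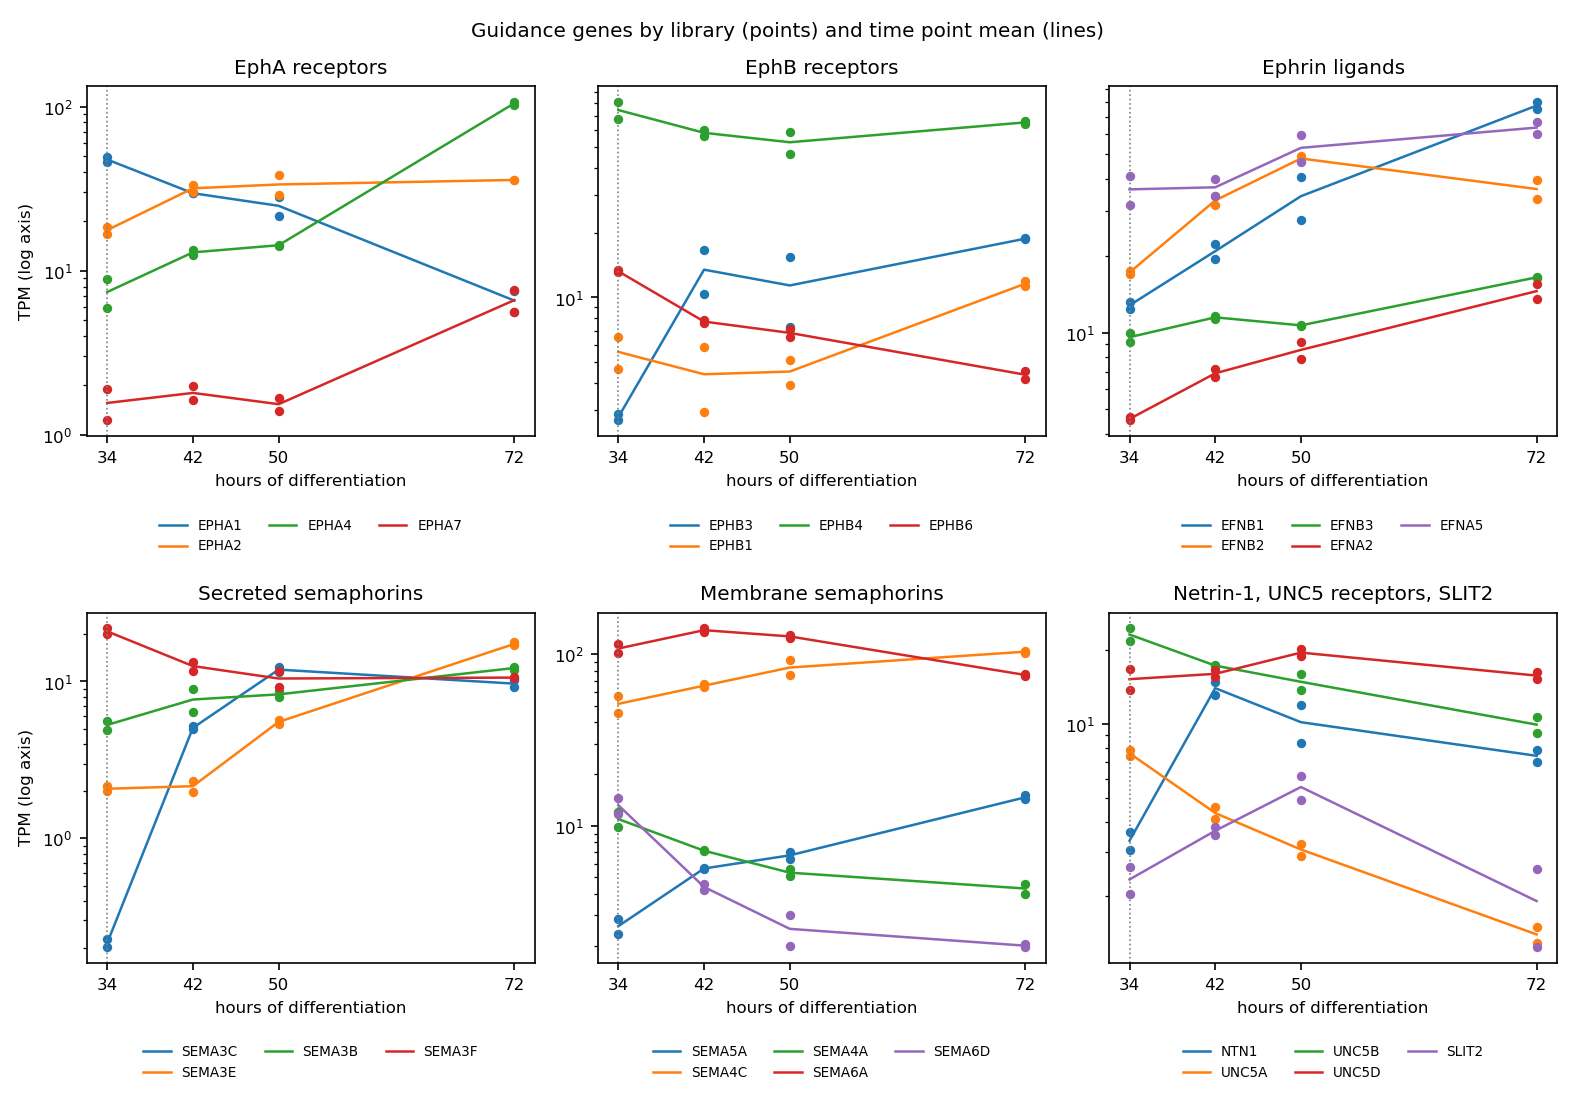
TPM (log axis) against hours of differentiation for guidance genes in 6 panels; points are libraries, lines time point means, and the dotted line marks WNT3A addition at 34 h. SEMA3C, EPHB3 and NTN1 are higher by 42 h, EPHA4 and EPHA7 at 72 h, and EPHA1, SEMA6D, UNC5A and UNC5B are lower at each later time point mean.

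Plexins, the signalling receptors of semaphorins, rose at 72 h in 5 of 8 tested members and none fell, beside 12.7% of all genes raised and 11.3% lowered. PLXNA2 changed most, from a low level: it had 1.41 and 1.11 TPM (34 h), 3.55 and 1.86 TPM (42 h), 3.22 and 2.44 TPM (50 h) and 6.17 and 7.14 TPM (72 h). The rise at 72 h was 1.76 ± 0.26 (limma BH-adjusted p 0.00240). PLXNB1, a receptor of SEMA4D and the most abundant plexin, had 116 and 105 TPM (34 h), 95.5 and 93.2 TPM (42 h), 112 and 104 TPM (50 h) and 139.9 and 142 TPM (72 h). Its 72 h difference from 34 h was small, 0.35 ± 0.09 (limma BH-adjusted p 0.0271), and was not called without replicate 2 at 34 h (0.154) or without replicate 1 or 2 at 72 h (0.110 and 0.123). PLXNB2, the SEMA4C receptor, had 37.2 and 35.8 TPM (34 h), 41.4 and 46.3 TPM (42 h), 67.1 and 49.3 TPM (50 h) and 65.4 and 70.7 TPM (72 h), and rose by 0.88 ± 0.15 at 72 h (limma BH-adjusted p 0.00424). PLXNA3 had 13.8 and 17.9 TPM (34 h), 17.8 and 16.7 TPM (42 h), 23.4 and 17.3 TPM (50 h) and 37.9 and 28.95 TPM (72 h), and rose by 1.03 ± 0.20 (limma BH-adjusted p 0.00752; not called without replicate 1 at 34 h, 0.0513, or replicate 1 at 72 h, 0.0580). PLXNA1 changed by 0.47 ± 0.14 (limma BH-adjusted p 0.0448), a call lost after both other scalings and without any 1 of the 34, 42 or 72 h libraries (0.0650 to 0.211). PLXND1, the SEMA3E receptor, had 16.3 and 14.2 TPM (34 h), 11.6 and 25.7 TPM (42 h), 18.3 and 16.6 TPM (50 h) and 16.5 and 16.1 TPM (72 h) and was not called. Its replicate 2 library at 42 h stood above the other 7.

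NTN1 was called higher than at 34 h from 42 h on. The receptors UNC5A and UNC5B were called lower at 50 and 72 h, but not at 42 h (limma BH-adjusted p 0.110 and 0.251). NTN1 (chromosome 17, 9021542 to 9244000, plus strand), the floor plate's diffusible cue, had 3.63 and 3.06 TPM (34 h), 14.9 and 13.1 TPM (42 h), 11.9 and 8.41 TPM (50 h) and 7.03 and 7.82 TPM (72 h). It was highest at 42 h and all later libraries were above those of 34 h. The difference from 34 h was 1.79 ± 0.19 at 42 h (limma BH-adjusted p 0.00218, with 1.78 and 1.79 within the replicates), kept in every alternative run, and 0.95 ± 0.19 at 72 h (limma BH-adjusted p 0.00929), lost without replicate 2 at 34 h (0.0601) or at 72 h (0.0598). UNC5A (chromosome 5, 176810477 to 176880898, plus strand), a repulsive netrin receptor, had 7.82 and 7.39 TPM (34 h), 4.11 and 4.57 TPM (42 h), 2.91 and 3.25 TPM (50 h) and 1.29 and 1.497 TPM (72 h). Its 2 libraries at each time point lay below those of the time point before, and it fell by 1.85 on the log2 scale by 72 h (limma BH-adjusted p 0.000257). UNC5B, which is also a receptor of vessels, had 24.5 and 21.8 TPM (34 h), 17.4 and 17.2 TPM (42 h), 16.0 and 13.7 TPM (50 h) and 9.21 and 10.7 TPM (72 h), and fell by 1.14 on the log2 scale (limma BH-adjusted p 0.000909). UNC5D, which also binds FLRT2, stayed between 13.7 and 20.2 TPM and was not called in any contrast. DCC, the attractive netrin receptor, was under 0.4 TPM in every library except replicate 2 at 42 h, which had 1.05 TPM. The summed level of UNC5 and DCC transcripts was 49.4 and 43.2 TPM (34 h), 37.4 and 39.6 TPM (42 h), 39.4 and 36.1 TPM (50 h) and 25.8 and 28.7 TPM (72 h).

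Of the slits none of 3, and of the tested ROBO receptors 1 of 3, was called at 72 h, beside 24.0% of all genes. SLIT2, a midline repellent, had 2.03 and 2.63 TPM (34 h), 3.55 and 3.81 TPM (42 h), 4.93 and 6.16 TPM (50 h) and 1.24 and 2.57 TPM (72 h). It was highest at 50 h, where its difference of 0.97 from 34 h was called with the replicate block (limma BH-adjusted p 0.0462 against 0.0694 without it). It fell by 1.205 on the log2 scale from 50 to 72 h (limma BH-adjusted p 0.0297), a call lost without replicate 1 or 2 at 50 h (0.0698 and 0.145) or replicate 1 at 72 h (0.163). SLIT1 and SLIT3 stayed between 0.374 and 2.02 TPM and were not called. ROBO1, the most abundant slit receptor, stayed between 19.1 and 27.8 TPM and was not called. ROBO3, which lets axons cross the midline, had 9.90 and 11.03 TPM (34 h), 10.8 and 10.6 TPM (42 h), 9.76 and 12.8 TPM (50 h) and 15.8 and 20.0 TPM (72 h). Its rise at 72 h of 0.72 ± 0.18 (limma BH-adjusted p 0.0211) was lost without replicate 1 or 2 at 34 h (0.0997 and 0.0637) or replicate 2 at 72 h (0.132). ROBO4, an endothelial receptor, was listed at 0 in 7 of the 8 libraries.

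Inside the cell, guidance receptors work through adaptors, small GTPase regulators and collapsin response mediators, and a list of 37 such genes was followed. At 42 h 1 of the 37 was called, which is 2.70% against 2.58% of all genes. At 72 h 14 were called, 8 raised and 6 lowered, which is 37.8% against 24.0% of all genes, with a median log2 change of 0.03. A second list held 28 other cues, receptors and modifiers, of which 25 could be tested. There 3 were called at 42 h (12% of the list), all raised, and 14 at 72 h (56.0%), 11 raised and 3 lowered, with a median log2 change of 0.35 at 72 h. RGMB, a repulsive cue of the receptor neogenin, had 17.6 and 15.4 TPM (34 h), 48.1 and 45.4 TPM (42 h), 74.9 and 62.3 TPM (50 h) and 109.6 and 97.0 TPM (72 h). Each time point lay above the one before without overlap, with 2.58 ± 0.13 at 72 h (limma BH-adjusted p 9.18e-06). CNTN2, an adhesion molecule of commissural axons, had 2.15 and 1.68 TPM (34 h), 2.94 and 3.38 TPM (42 h), 2.17 and 2.38 TPM (50 h) and 11 and 15.0 TPM (72 h), and rose by 2.25 (limma BH-adjusted p 0.000206). FLRT3, a ligand of UNC5 receptors, had 0.885 and 1.01 TPM (34 h), 1.03 and 1.62 TPM (42 h), 2.04 and 3.71 TPM (50 h) and 6.67 and 7.98 TPM (72 h), and rose by 2.09 (limma BH-adjusted p 0.00107). CNTN1, a related adhesion molecule, had 4.36 and 3.22 TPM (34 h), 2.77 and 1.79 TPM (42 h), 1.09 and 2.25 TPM (50 h) and 0.374 and 0.335 TPM (72 h), and fell by 1.81 on the log2 scale (limma BH-adjusted p 0.00334). MET, the hepatocyte growth factor receptor, had 4.99 and 3.499 TPM (34 h), 1.36 and 1.80 TPM (42 h), 0.706 and 1.19 TPM (50 h) and 0.566 and 0.434 TPM (72 h), and fell by 1.79 on the log2 scale (limma BH-adjusted p 0.00204). Both genes were lowest in their 72 h libraries.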

How the data were processed

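RNA was measured in 8 libraries of 1 cell line, 2 at each of 4 time points, from poly(A)-enriched paired-end libraries, per the labels' protocols. The authors deposited TPM values, 1 row per Ensembl gene and 1 column per library. Per the submitters' processing notes, Salmon 1.9.0 and GRCh38 were used; the annotation and any filter are not given in the sources used here. TPM keeps no read number, so no counting interval was computed.

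Rows were summed by gene symbol (37951 rows, 35940 symbols; of the members, EPHB6 had 2 rows). Genes reaching 1 TPM in 2 or more libraries were tested on log2(TPM + 1) with limma 3.58.1 in R 4.3.3: 1 mean per time point, all 8 libraries in 1 fit (4 residual degrees of freedom), variance trend with level, two-sided tests, Benjamini-Hochberg adjustment over all 14908 tested genes. An exact permutation test of 2 against 2 cannot go below p = 0.333, so none was used. The fit was tested on simulated data. Positions are those of GENCODE release 29 (GRCh38), 1-based, found through the Ensembl identifier.

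The replicate number is labelled a batch and so pairs libraries. The correlation across genes of same-numbered deviations was 0.0949 for 34 with 42 h, 0.195 for 34 with 50 h and 0.142 for 42 with 50 h. For the 72 h libraries it was -0.0445 with 34 h, -0.0779 with 42 h and -0.104 with 50 h. The fit with the replicate block is an alternative. The design text calls the second set an independent biological replicate of the same protocol.

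Members and lists were chosen with earlier results of these data known. Given in full are members called in any contrast with an absolute log2 change of at least 1 and the same sign within both replicates, EPHA4, and the 5 with the highest mean; of the lists, the 5 called genes with the largest change at 72 h; and EGR2 and AXIN2. Others are named where a class is described. A further gene that the rule gave by name is not reported here.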

Additional observations from a re-analysis of the deposited data

How the results depend on the processing

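The member results followed were 84 contrasts of single genes, with up to 17 alternatives each. They were those called in the main fit, those with an absolute log2 change of at least 1, and all contrasts of EPHA4. None changed its direction, which the choice of called or large changes made likely beforehand. Members with smaller, uncalled changes were not followed in this way. Without the filter on low values 3 members were called at 42 h and 13 at 50 h against 34 h, and with only the compared time points fitted the counts were 4 at 42 h, 5 at 50 h and 7 for 72 h against 50 h. Without a variance trend 2 members were called between 42 and 50 h. Leaving out 1 library at a time gave 2 to 8 calls (42 h against 34 h), 9 to 19 (50 h against 34 h), 27 to 36 (72 h against 34 h), 4 to 11 (72 h against 50 h) and 20 to 34 over all time points. The lone library then left at a time point is assumed to vary like the others. The share of all genes called was not computed under the alternative settings and omissions. Whether a lower count is particular to the members is therefore not known.

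With the replicate block the member calls numbered 7 (42 h), 20 (50 h) and 36 (72 h) in the comparisons with 34 h, with 0 for 50 against 42 h and 12 for 72 against 50 h. Calls lost under the block were EPHB6 at 42 h, PLXNB2 and UNC5B at 50 h and EPHB1 at 72 h against 34 h, and EPHB1 and UNC5A for 72 h against 50 h. EPHB4 and SLIT2 gained a call at 50 h against 34 h (0.0399 and 0.0462), and the block changed no other member call. The cause of these shifts was not tested; leaving out libraries also leaves fewer samples. The list of adaptors and effectors, with 1 call at 42 h, had 2 with the replicate block, 2 after trimmed mean scaling, 3 with a mean of at least 5 TPM, 0 without the filter, 0 without the variance trend, and 0 to 3 without single libraries. The list of other cues, with 3 calls at 42 h, had 1 with the compared time points alone and 1 to 4 without single libraries. After trimmed mean scaling the summed level was 40.5 TPM at 34 h and 128 TPM at 72 h for ephrin-B, 82.1 and 156 TPM for EphA, and at 72 h 126 TPM for EphB, 312 TPM for plexins, 43.0 TPM for ROBO and 215 TPM for class 5 to 7 semaphorins. The unknown read depth limits what can be said of members near or under 1 TPM.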

Other observations

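Single libraries set the level of some low or middling members. EPHA10 had 3.71 TPM in replicate 2 at 72 h and at most 0.617 TPM in the other 7 libraries. ROBO2 had 2.56 TPM in replicate 2 at 42 h and 0.109 TPM in replicate 2 at 50 h. SEMA4G had 11.5 TPM in replicate 2 at 50 h, where replicate 1 had 5.32 TPM.

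Summed over the 69 guidance genes, transcripts had 1178 and 1074 TPM (34 h), 1181 and 1194 TPM (42 h), 1405 and 1282 TPM (50 h), then 1670.3 and 1644 TPM (72 h). Both 72 h libraries had a higher sum than every earlier library.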
